A study of Danio rerio with 7 samples.

Results

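The genes of a transcriptional switch between fat and carbohydrate as mitochondrial fuel, 10 of the 32520 zebrafish reference genes measured, are described here. They are the coactivator genes ppargc1a, ppargc1b and pprc1, the nuclear receptor gene esrra, and the pyruvate dehydrogenase kinase genes pdk1, pdk2a, pdk2b, pdk3a, pdk3b and pdk4. Each was found by its gene symbol. The set was selected on the levels of these genes in the same 7 libraries by diet group, as seen in earlier results, so the values and adjusted p-values given for them describe the genes and do not test the choice.

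RNA came from whole larvae at 15 days post fertilization of a transgenic line that overexpresses CD36, a membrane receptor for long-chain fatty acids, and all 7 libraries carry that transgene. The 2 HFD + CACF libraries (fish 2 and 4) are from larvae on a high-fat diet (24%) that were then kept in medium with CACF at 40 µg/ml from the afternoon until the next morning. The 2 HFD libraries (fish 2 and 4) are from larvae on the same diet without CACF, and the 3 ND libraries (fish 1, 2 and 4) from larvae on a normal diet (12%), with diets given from 5 days post fertilization. The study concerns lipid build-up and liver cancer in CD36-overexpressing fish and a possible effect of CACF on them, with ND as its control. The sources leave CACF unexplained, and give neither the promoter of the transgene, nor the sampling hour, nor whether 1 fish or a pool made a library. They mention larvae kept with or without CACF, but do not say for each untreated group whether it spent the night in the same medium. Clutches are not named either, so the p-values cover the spread among these 7 libraries, which may be technical. A library without the transgene was not analysed here.

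The genes have linked roles. PGC-1 coactivators bind nuclear receptors, ERRα among them, and raise transcription of genes for mitochondrial respiration and fatty acid oxidation. ppargc1a encodes the inducible member PGC-1α, ppargc1b its relative PGC-1β, and pprc1 the PGC-1-related coactivator; esrra encodes ERRα. In mammals PGC-1α and ERRα act on the Pdk4 gene. Pyruvate dehydrogenase kinases phosphorylate and switch off the pyruvate dehydrogenase complex, which spares pyruvate from oxidation when fat is burned. In mammals Pdk4 is induced by fasting in muscle and liver, Pdk2 is the widely expressed form, and Pdk1 is a target of hypoxia signalling.

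The libraries held 12699552 to 22543693 reads, with the HFD libraries the shallowest. HFD + CACF fish 2 and ND fish 1 stood apart from the rest. Their median correlation across genes with the remaining libraries was 0.875 and 0.876, against 0.940 to 0.946 for the other 5. The share of reads from the mitochondrial genome was 27.9% and 20.3% in HFD + CACF larvae, 13.0% and 10.3% in HFD larvae, and 16.6%, 9.26% and 7.06% in ND larvae. Skeletal muscle, liver, neuron and skin markers were all present, as for whole larvae, and no neuron, skeletal muscle or epidermis marker was at 0 in any library. The zebrafish reference gene cd36 had 6.16 and 6.0 TPM in HFD + CACF larvae, 19.8 and 15.7 TPM in HFD larvae, and 81.2, 7.06 and 7.49 TPM in ND larvae. The sources used here do not give whether its entry also counts reads of the transgene, so these values are not a measure of transgene level. In whole larvae, fewer cells of a type and less RNA per cell cannot be told apart.

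Levels are given as TPM, a share of transcripts corrected for transcript length, which allows genes to be compared. Ranked by the median over the 7 libraries, pdk2b (30.1 TPM), pdk2a (15.6 TPM) and ppargc1b (8.68 TPM) stood at the top. pdk1 (3.02 TPM), ppargc1a (2.01 TPM), pdk4 (1.46 TPM), pdk3a (1.36 TPM), pprc1 (1.20 TPM), esrra (0.643 TPM) and pdk3b (0.362 TPM) followed. Among neighbours in that order only ppargc1b and pdk1 had ranges over the 7 libraries that did not overlap, at 5.61 to 14.7 and 1.41 to 3.91 TPM. The abundance files also list assembled transcripts on the same strand over each gene, and for some genes these held more TPM than the gene's own entry. The median ratio was 8.21 for esrra, 5.68 for pdk3b, 3.03 for pdk1, 2.67 for pprc1 and 1.83 for ppargc1a, and between 1.0 and 1.08 for the other 5 genes. TPM levels of esrra, pdk3b, pdk1, pprc1 and ppargc1a may therefore be understated. However, an assembled transcript was counted in full wherever it overlapped the gene, so these sums may also hold RNA of neighbouring genes. Deposited normalized counts, reads divided by a size factor per library, are given beside TPM where the scale matters. The ratio also differed between libraries, from 2.15 to 16.1 for esrra, 1.0 to 4.64 for pdk1 and 1.0 to 2.71 for pdk2a. It ran from 0.0 to 3.24 for pdk3a and from 0.0 to 1.79 for pdk4, with no assembled transcript over either in HFD fish 2. The order of groups can therefore change with the ratio.

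**Figure D1:**
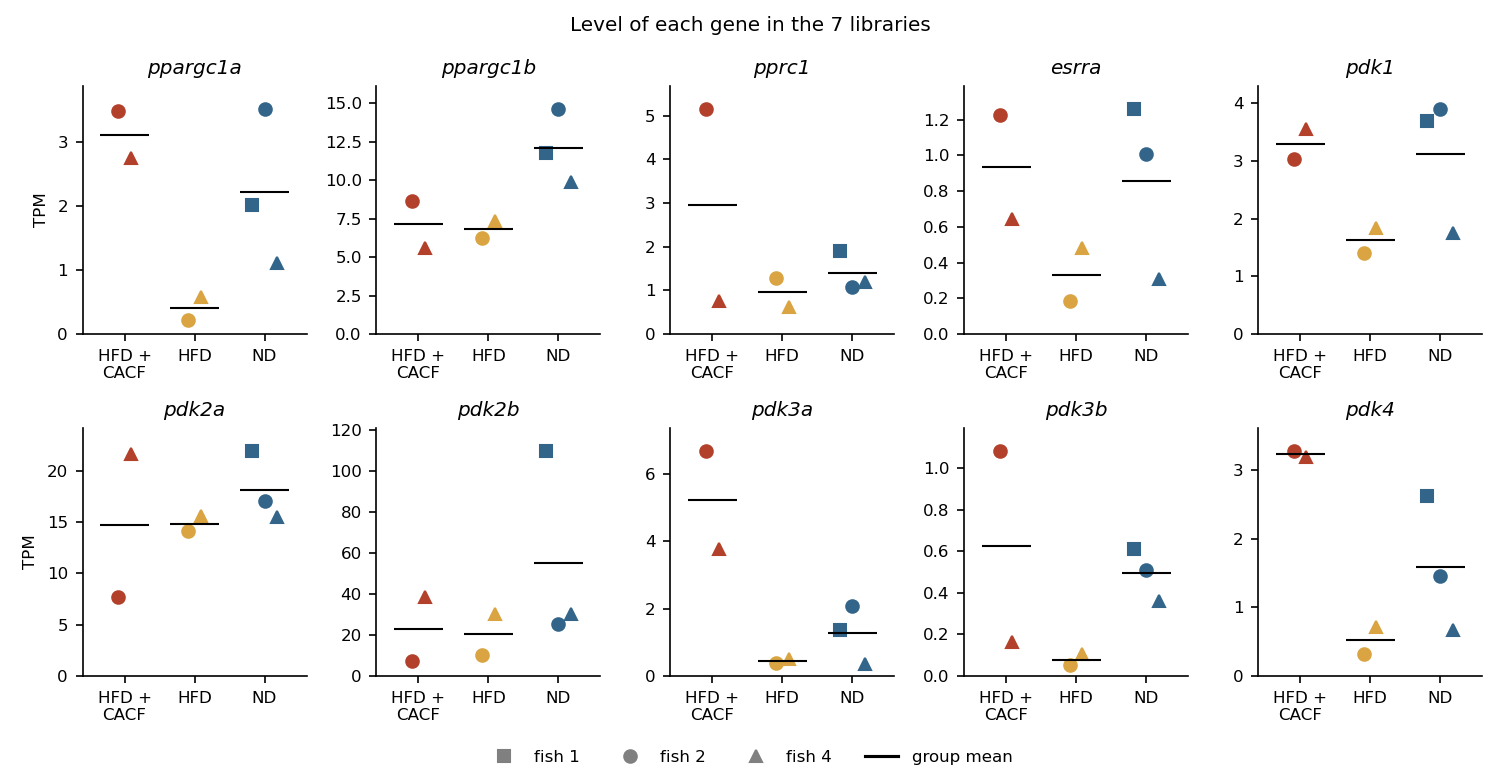
TPM of each of the 10 genes in the 7 libraries, 1 point per library with fish 1, 2 and 4 as squares, circles and triangles, and a bar at each group mean; the vertical axis starts at 0 and differs between panels. ppargc1a, esrra, pdk1, pdk3a, pdk3b and pdk4 had both HFD + CACF libraries above both HFD libraries, as did 36.2% of all genes tested. pdk2b was set apart by ND fish 1 at 110.2 TPM.

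The ppargc1a gene (ENSDARG00000067829, GRCz11 chromosome 7, 70578985 to 70665965, minus strand) was low in HFD larvae. It had 3.47 and 2.75 TPM in HFD + CACF larvae, 0.223 and 0.580 TPM in HFD larvae, and 2.01, 3.52 and 1.11 TPM in ND larvae. Both HFD libraries lay below all 5 others, and the HFD + CACF libraries lay within the ND range. The reads behind these values were 165 and 139 in HFD + CACF larvae, 8 and 24 in HFD larvae, and 128, 173 and 58 in ND larvae, so the HFD levels rest on few reads. On log2(TPM + 1), the scale of all fold changes in TPM below, HFD + CACF against HFD gave 1.56 ± 0.42 (SE; 95% interval 0.65 to 2.47; limma adjusted p = 0.112) and HFD against ND gave -1.14 ± 0.38 (limma adjusted p = 0.9996). HFD + CACF against ND gave 0.42 ± 0.38 (limma adjusted p = 0.662). The added 1 TPM shrinks changes of a gene this low. On log2(normalized count + 1) the same 3 comparisons gave 2.81, -2.41 and 0.40, and mean normalized counts of 119.4 in HFD + CACF larvae and 17.5 in HFD larvae differed 6.82-fold. Assembled transcripts over ppargc1a had 4.18 and 2.94 TPM in HFD + CACF larvae and 0.949 and 1.81 TPM in HFD larvae, so there the groups differed less.

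ppargc1b (ENSDARG00000101569, chromosome 14, 24934736 to 25001584, plus strand) was the most abundant coactivator gene by the TPM of the genes' own entries and had another order. It had 8.68 and 5.61 TPM in HFD + CACF larvae, 6.28 and 7.34 TPM in HFD larvae, and 11.7, 14.7 and 9.87 TPM in ND larvae. Both high-fat groups lay below the 3 ND libraries, and they overlapped each other. In assembled transcripts HFD + CACF fish 2 (11.5 TPM) lay above ND fish 4 (9.87 TPM). HFD + CACF against ND gave a log2 fold change of -0.69 ± 0.38 (95% interval -1.51 to 0.12; limma adjusted p = 0.467), and HFD against ND gave -0.73 ± 0.38 (limma adjusted p = 0.9996). Between HFD + CACF and HFD it was 0.04, with a 95% interval of -0.86 to 0.93, and -0.21 on normalized counts.

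pprc1 (ENSDARG00000090337, chromosome 13, 12007904 to 12021566, minus strand) had 5.17 and 0.749 TPM in HFD + CACF larvae, 1.28 and 0.625 TPM in HFD larvae, and 1.89, 1.07 and 1.20 TPM in ND larvae. HFD + CACF fish 2 was above every other library and fish 4 of that group was inside the HFD range. HFD + CACF against HFD had a log2 fold change of 0.77 ± 0.52 with both libraries, -0.14 without HFD + CACF fish 2 and 1.68 without fish 4, so its direction was set by 1 library. Against ND it was 0.48 ± 0.47, -0.43 and 1.38 in the same order.

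Within the PGC-1 family, ppargc1a made up 20.1% and 30.2% of the summed TPM in HFD + CACF larvae, 2.86% and 6.79% in HFD larvae, and 12.8%, 18.3% and 9.13% in ND larvae. ppargc1b held 50.1% to 85.9% of the family in every library. In assembled transcripts of HFD + CACF fish 2, pprc1 (11.8 TPM) lay above ppargc1b (11.5 TPM). The summed TPM of the 3 coactivator genes was 17.3 and 9.11 in HFD + CACF larvae, 7.78 and 8.55 in HFD larvae, and 15.6, 19.2 and 12.2 in ND larvae, with both HFD libraries below the other 5. These shares and sums use the genes' own entries. In assembled transcripts ppargc1a, ppargc1b and pprc1 had 0.949, 8.06 and 3.84 TPM in HFD fish 2. They had 2.94, 6.16 and 1.81 TPM in HFD + CACF fish 4, so there the sums were in the other order. HFD fish 4 had 1.81, 2.48 and 1.67 TPM, with a larger ppargc1a share than either HFD + CACF library.

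esrra (ENSDARG00000069266, chromosome 21, 26606741 to 26634099, plus strand) had 1.23 and 0.643 TPM in HFD + CACF larvae, 0.182 and 0.481 TPM in HFD larvae, and 1.26, 1.01 and 0.309 TPM in ND larvae. The HFD + CACF libraries were above both HFD libraries, and ND fish 4 lay between the HFD libraries. In assembled transcripts ND fish 4 (4.98 TPM) lay above both HFD libraries (2.15 and 1.03 TPM). HFD + CACF against HFD gave a log2 fold change of 0.53 ± 0.37 (limma adjusted p = 0.628), and 1.38 on normalized counts. HFD against ND gave -0.45 ± 0.34 (limma adjusted p = 0.9996), and HFD + CACF against ND gave 0.08 ± 0.34, with the sign turning under median-of-ratios scaling.

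Among the kinases, pdk4 (ENSDARG00000054848, chromosome 19, 41190258 to 41213718, minus strand) had 2 nearly equal HFD + CACF libraries in TPM. It had 3.28 and 3.19 TPM in HFD + CACF larvae, 0.317 and 0.719 TPM in HFD larvae, and 2.62, 1.46 and 0.664 TPM in ND larvae. The reads were 118 and 159 in HFD + CACF larvae, 9 and 32 in HFD larvae, and 168, 68 and 31 in ND larvae. The HFD levels thus rest on few reads. The HFD + CACF libraries lay above all 5 others in TPM, and the HFD range held ND fish 4. The log2 fold change was 1.49 ± 0.42 (95% interval 0.59 to 2.39; limma adjusted p = 0.120) for HFD + CACF against HFD. It was 0.79 ± 0.38 (limma adjusted p = 0.416) for HFD + CACF against ND and -0.71 ± 0.38 (limma adjusted p = 0.9996) for HFD against ND. On normalized counts pdk4 had 98.1 and 116.3 in HFD + CACF larvae, 11.5 and 33.1 in HFD larvae, and 147.6, 50.6 and 26.1 in ND larvae. There ND fish 1 stood above both HFD + CACF libraries, so the separation from ND held in TPM but not in normalized counts. Assembled transcripts over pdk4 had 4.83 and 3.19 TPM in HFD + CACF larvae and 0.0 and 0.76 TPM in HFD larvae. In ND larvae they had 2.62, 1.46 and 1.19 TPM, so both HFD libraries lay below all ND libraries, unlike in the gene's own entry. How many of all genes had that order in assembled transcripts was not counted.

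pdk3a (ENSDARG00000014527, chromosome 24, 24944352 to 24959686, minus strand) had the largest log2 fold change of the 9 genes tested for HFD + CACF against HFD. It had 6.70 and 3.77 TPM in HFD + CACF larvae, 0.387 and 0.498 TPM in HFD larvae, and 1.36, 2.08 and 0.364 TPM in ND larvae. The reads were 179 and 108 in HFD + CACF larvae, 10 and 13 in HFD larvae, and 48, 59 and 14 in ND larvae. The levels in HFD larvae and in ND fish 4 thus rest on few reads. Both HFD + CACF libraries lay above all 5 others, in TPM and in normalized counts. The log2 fold change was 2.07 ± 0.44 (95% interval 1.12 to 3.03; limma adjusted p = 0.0966) against HFD and 1.5 ± 0.40 (95% interval 0.63 to 2.37; limma adjusted p = 0.205) against ND. HFD against ND gave -0.57 ± 0.40 (limma adjusted p = 0.9996). Mean normalized counts were 113.9 in HFD + CACF larvae, 13.1 in HFD larvae and 32.6 in ND larvae, an 8.70-fold and a 3.49-fold difference of HFD + CACF from HFD and ND. Assembled transcripts over pdk3a had 6.70 and 3.77 TPM in HFD + CACF larvae and 0.0 and 1.61 TPM in HFD larvae. In ND larvae they had 1.36, 2.08 and 0.872 TPM, so HFD fish 4 lay above ND fish 1 and 4 there.

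Its paralog pdk3b (ENSDARG00000099791, chromosome 21, 40589770 to 40613000, plus strand) did not reach 1 TPM in 2 libraries and was not tested. It had 1.08 and 0.164 TPM in HFD + CACF larvae, 0.0520 and 0.107 TPM in HFD larvae, and 0.610, 0.509 and 0.362 TPM in ND larvae. These rest on 28 and 8 reads in HFD + CACF larvae, 2 and 4 reads in HFD larvae, and 26, 27 and 19 reads in ND larvae. The exact 95% Poisson interval of the 2 reads is 0.242 to 7.22 and that of the 8 reads 3.45 to 15.8, covering counting error only. These intervals overlap, but they are not adjusted for library depth and their overlap is no test of a difference. With so few reads the gap between the lowest HFD + CACF library and the HFD libraries is uncertain. Without the filter on low values the log2 fold change of HFD + CACF against HFD was 0.53 ± 0.26 (limma adjusted p = 0.540). Assembled transcripts over pdk3b had 2.42 and 1.43 TPM in HFD + CACF larvae and 0.715 and 0.757 TPM in HFD larvae. In ND larvae they had 1.78, 2.89 and 0.673 TPM.

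pdk1 (ENSDARG00000013128, chromosome 9, 3135062 to 3149896, minus strand) had 3.02 and 3.55 TPM in HFD + CACF larvae, 1.41 and 1.84 TPM in HFD larvae, and 3.69, 3.91 and 1.75 TPM in ND larvae. The HFD + CACF pair lay above the HFD pair in TPM and in normalized counts, and ND fish 4 lay between the HFD libraries. In assembled transcripts the pairs overlapped, with 9.18 and 5.54 TPM in HFD + CACF larvae and 6.53 and 6.32 TPM in HFD larvae. The log2 fold change was 0.71 ± 0.41 (limma adjusted p = 0.514) for HFD + CACF against HFD and -0.61 ± 0.38 (limma adjusted p = 0.9996) for HFD against ND. For HFD + CACF against ND it was 0.10 ± 0.38, and -0.11 on normalized counts.

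The pdk2 pair, the most abundant kinases, showed no such order. pdk2a (ENSDARG00000020876, chromosome 12, 28559408 to 28570989, minus strand) had 7.67 and 21.7 TPM in HFD + CACF larvae, 14.1 and 15.6 TPM in HFD larvae, and 21.9, 17.0 and 15.5 TPM in ND larvae. The 2 HFD + CACF libraries lay on either side of both HFD libraries, and the log2 fold change of HFD + CACF against HFD was -0.17 with a 95% interval of -1.22 to 0.87. Assembled transcripts over pdk2a had 7.67 and 39.9 TPM in HFD + CACF larvae. There both HFD libraries (14.1 and 16.9 TPM) lay below all ND libraries (22.0, 36.1 and 41.9 TPM), unlike in the gene's own entry. The share of all genes with that order in assembled transcripts was not counted. pdk2b (ENSDARG00000059054, chromosome 19, 5674907 to 5687743, plus strand) had 7.43 and 38.4 TPM in HFD + CACF larvae, 10.3 and 30.3 TPM in HFD larvae, and 110.2, 25.4 and 30.1 TPM in ND larvae. In both high-fat groups fish 4 was above fish 2, and ND fish 1 was above every other library. The log2 fold change of HFD + CACF against HFD was -0.05 (95% interval -1.76 to 1.66), an interval that leaves room for changes as large as those of pdk4 in either direction. Against ND it was -1.31 ± 0.72 (limma adjusted p = 0.477) for HFD + CACF and -1.26 ± 0.72 (limma adjusted p = 0.9996) for HFD, and -0.65 and -0.61 without ND fish 1. HFD + CACF against ND was -0.19 without HFD + CACF fish 2 and -2.42 without fish 4, and HFD + CACF against HFD was 1.06 and -1.16, so both rest on which of those libraries is kept. HFD against ND was -0.52 without HFD fish 2 and -1.99 without HFD fish 4. The sources used here do not give how reads shared by paralogs such as pdk2a and pdk2b, or pdk3a and pdk3b, were counted, so their split is uncertain.

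**Figure D2:**
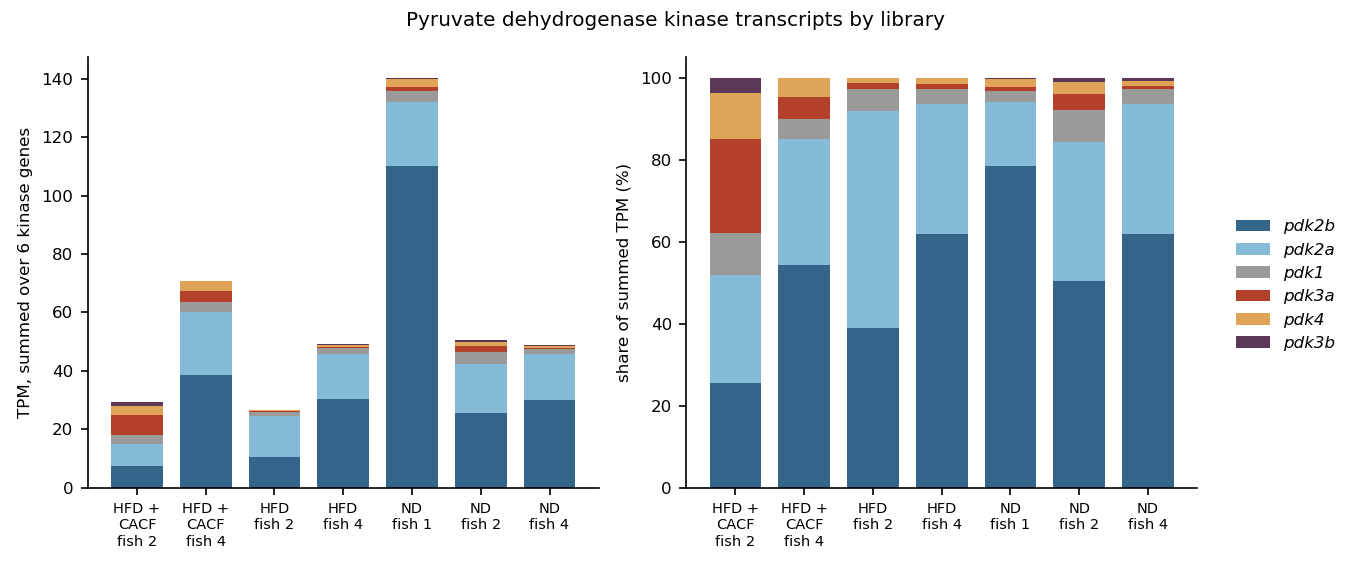
TPM of the 6 pyruvate dehydrogenase kinase genes stacked by library, as levels on the left and as a share of their sum in percent on the right. pdk2a and pdk2b together fill most of each bar, and pdk3a holds its largest share, 22.9%, in HFD + CACF fish 2.

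pdk3a and pdk4, though minor kinases, held larger shares of the kinase pool in both HFD + CACF libraries than in any other. pdk3a was 22.9% and 5.32% of the summed kinase TPM in HFD + CACF larvae, 1.46% and 1.01% in HFD larvae, and 0.966%, 4.12% and 0.747% in ND larvae. pdk4 was 11.2% and 4.51% in HFD + CACF larvae, 1.19% and 1.46% in HFD larvae, and 1.87%, 2.90% and 1.36% in ND larvae. The share of pdk3a in HFD + CACF fish 4 was close to that in ND fish 2. The pool itself was set by the pdk2 pair and overlapped between all groups, with 29.2 and 70.8 TPM in HFD + CACF larvae, 26.6 and 49.1 TPM in HFD larvae, and 140.4, 50.4 and 48.7 TPM in ND larvae. HFD + CACF fish 2 also had the lowest pdk2a and pdk2b levels of the 7 libraries.

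HFD + CACF against HFD compares larvae on the same diet with and without CACF; whether the HFD larvae were also kept in medium overnight is not stated for that group. limma called 0 of the 9 tested genes there at an adjusted p under 0.05, where 0.0055% of 18169 genes were called, 1 gene, lower. pdk3a, ppargc1a and pdk4 had an unadjusted p under 0.05, as did 13.8% of all genes, and ranked 78, 425 and 505 among the genes tested. Leaving out ND fish 4, which enters only through the shared spread, brought pdk3a past the threshold (limma adjusted p = 0.0334), in a fit that called 0.655% of all genes higher. edgeR on reads recovered from the normalized counts called 0 (0.0% of all genes) with 3 at an unadjusted p under 0.05, where 14.7% of all genes were. DESeq2 had 3 as well, where 12.2% of all genes were. After adjustment DESeq2 on the same reads called 2 of 10, both higher, where 3.6% of all genes were called higher: pdk3a with a log2 fold change of 3.12 (DESeq2 adjusted p = 0.0034) and ppargc1a with 2.75 (DESeq2 adjusted p = 0.00267), while pdk4 had 2.25 (DESeq2 adjusted p = 0.0793). In TPM both HFD + CACF libraries lay above both HFD libraries for 5 of the 9 tested genes, where 36.2% of all genes did so, and for pdk3b. Of those 5 genes, 4 were under 1 TPM in both HFD libraries and passed the filter on low values through the other groups. The median log2 fold change was 0.71 over the 9 genes and 0.16 over all genes tested, and 0.80 and 0.18 without HFD + CACF fish 2. Without that library pdk3a had 1.73, pdk4 1.48 and ppargc1a 1.43.

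**Figure D3:**
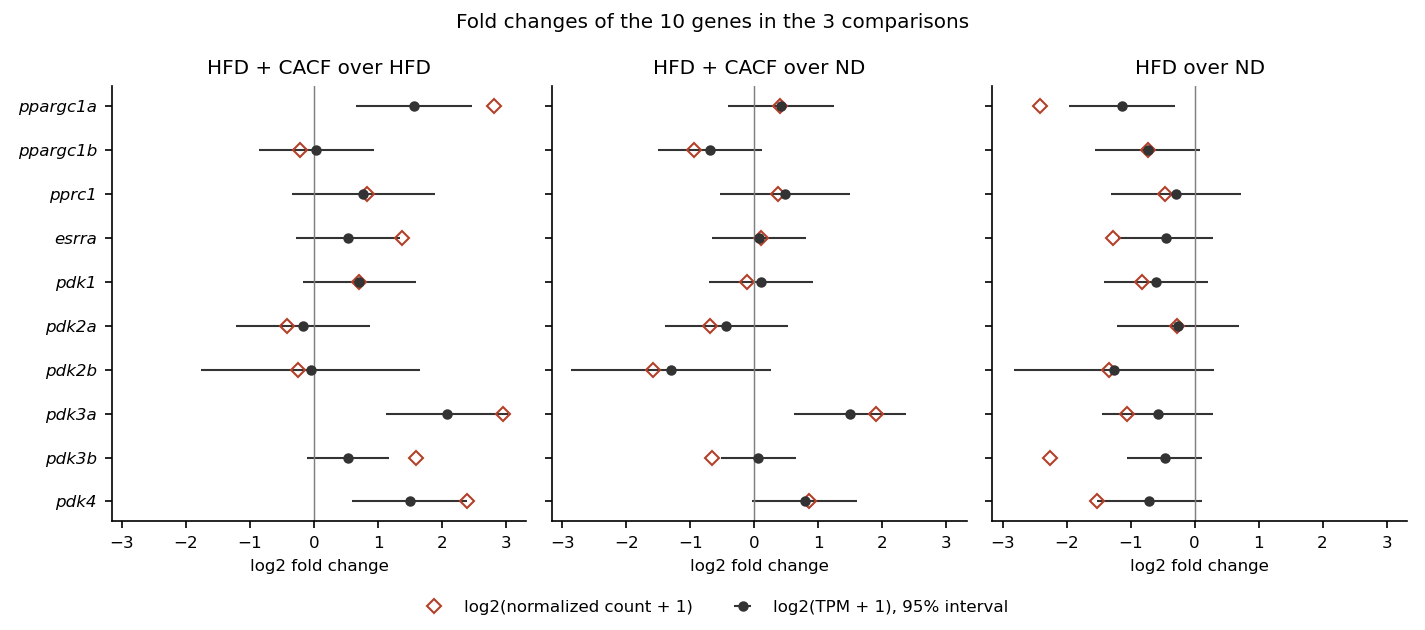
Log2 fold change of each gene in the 3 comparisons, filled circles from log2(TPM + 1) with limma's 95% interval and open diamonds from log2(normalized count + 1); pdk3b is from the fit without a filter on low values. In HFD + CACF over HFD the intervals of ppargc1a (1.56), pdk3a (2.07) and pdk4 (1.49) lie above 0, and in HFD over ND all circles lie below 0.

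Levels carry a scaling limit. The median gene had a log2 fold change of 0.16 for HFD + CACF against HFD and 0.19 for HFD + CACF against ND in TPM, against -0.04 and 0.02 after median-of-ratios scaling. Relative to the median gene, HFD + CACF against HFD gave 1.91 for pdk3a, 1.40 for ppargc1a and 1.33 for pdk4, and HFD + CACF against ND gave 1.31 for pdk3a and 0.60 for pdk4. ppargc1b was 0.13 below the median gene in the first of these comparisons.

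HFD + CACF against ND compares the treated larvae with the control named by the series. These groups differ in diet (24% against 12%) and in CACF at once. As no library came from ND larvae with CACF, diet and CACF cannot be told apart in this comparison. limma called 0 of 9 genes, where 0.0771% of all genes were called, 14 in all and each of them lower; pdk3a alone had an unadjusted p under 0.05, where 12.5% of all genes did. edgeR and DESeq2 called 0 as well, where they called 0.0188% and 3.65% of all genes. Each had 2 genes at an unadjusted p under 0.05, where 13.9% of all genes in edgeR and 11.9% in DESeq2 were. pdk3a was among them, at a DESeq2 adjusted p of 0.0899. In TPM the HFD + CACF libraries lay above all ND libraries for pdk3a and pdk4, 2 of 9, where 19.2% of all genes did so, and below them for ppargc1b, 1 of 9, where 8.72% did so. The median log2 fold change of the 9 genes was 0.10, against 0.19 over all genes tested. In the authors' deposited table no gene of the 10 had an adjusted p under 0.05, where 1.34% of all genes did. The smallest adjusted p among them there was 0.339, for pdk3a with a log2 fold change of 1.80.

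HFD against ND is the comparison of the diets. limma called 0 of 9 genes and 0.0% of all genes, and ppargc1a alone had an unadjusted p under 0.05, where 3.31% of all genes did. edgeR and DESeq2 also called 0.0% of all genes, with 3 of the 10 genes at an unadjusted p under 0.05 in edgeR and 5 in DESeq2, where 6.41% and 5.9% of all genes were. All 9 log2 fold changes were negative, as were 52.8% of those of all genes, and the median was -0.61 over the 9 genes and -0.03 over all. Without ND fish 1 the 9 stayed negative with a median of -0.49, where 71.0% of all genes were negative and their median was -0.18. In TPM the HFD libraries lay below all ND libraries for ppargc1a and ppargc1b, 2 of 9, where 12.1% of all genes did so, and for pdk3b. For pdk3b this did not hold in assembled transcripts, where ND fish 4 (0.673 TPM) lay below both HFD libraries. In the authors' deposited table no gene of the 10 had an adjusted p under 0.05, where 0.281% of all genes did, and the values nearest to it were those of pdk4 (log2 fold change -1.73, adjusted p = 0.441), ppargc1a (-2.46, adjusted p = 0.447) and pdk3b (-2.54, adjusted p = 0.466). The 3 comparisons share libraries, and a low HFD pair enters this one and HFD + CACF against HFD with opposite signs.

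Genes around the switch were described from lists of known members, chosen with earlier results of these data known. Counts at an unadjusted p under 0.05 are to be read against the shares of all genes at that p. These were 13.8% in limma, 14.7% in edgeR and 12.2% in DESeq2 for HFD + CACF against HFD, 12.5%, 13.9% and 11.9% for HFD + CACF against ND, and 3.31%, 6.41% and 5.9% for HFD against ND. DESeq2 called 3.6% of all genes higher and 1.2% lower in HFD + CACF against HFD, and 0.697% higher and 2.95% lower in HFD + CACF against ND. The pyruvate dehydrogenase complex, its phosphatases and the mitochondrial pyruvate carriers had 10 tested genes and 0 called by limma, edgeR or DESeq2 in each comparison. At an unadjusted p under 0.05 limma had 0 of them throughout, edgeR 0, and DESeq2 1, 1 and 0 for HFD + CACF against HFD, HFD + CACF against ND and HFD against ND. Their median log2 fold change was 0.29 for HFD + CACF against HFD, 0.29 for HFD + CACF against ND and -0.08 for HFD against ND. It was 0.15 without HFD + CACF fish 2 in the first comparison, and 0.02 and -0.28 without ND fish 1 in the other two. The median of all genes was 0.18, 0.02 and -0.18 in those fits. pdha1a, the main catalytic subunit, had 94.3 and 79.3 TPM in HFD + CACF larvae, 61.5 and 71.4 TPM in HFD larvae, and 52.4, 91.8 and 73.3 TPM in ND larvae. pdp1 and pdp2, the phosphatases that reverse the kinases, summed to 5.54 and 3.10 TPM in HFD + CACF larvae, 1.76 and 1.36 TPM in HFD larvae, and 0.924, 3.96 and 2.72 TPM in ND larvae. Both HFD + CACF sums lay above both HFD sums, where 36.2% of all single genes tested had that order. Within the sums pdp2 had 2.785 TPM in HFD + CACF fish 2 and 0.611 TPM in fish 4. The log2 fold changes for HFD + CACF against HFD were 0.73 ± 0.42 (limma adjusted p = 0.512) for pdp1 and 0.86 ± 0.47 (limma adjusted p = 0.485) for pdp2.

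PGC-1 partners and mitochondrial biogenesis genes had 25 tested members and 0 called by limma in each comparison, with medians of 0.32, 0.27 and -0.22 for HFD + CACF against HFD, HFD + CACF against ND and HFD against ND. The first was 0.57 without HFD + CACF fish 2, and the others 0.02 and -0.37 without ND fish 1. The median of all genes was 0.18, 0.02 and -0.18 there. limma had 5, 3 and 0 of them at an unadjusted p under 0.05, and edgeR called 0 with 5, 4 and 2. DESeq2 called esrrga, med1 and nrip1a higher in HFD + CACF against HFD, 3 of 25 where 3.6% of all genes were, and 0 in the other comparisons, where it had 4 and 2 at an unadjusted p under 0.05. esrrga, which encodes a relative of ERRα, had 9.39 and 6.28 TPM in HFD + CACF larvae, 1.88 and 1.63 TPM in HFD larvae, and 1.77, 5.93 and 3.45 TPM in ND larvae, a log2 fold change of 1.66 ± 0.47 (limma adjusted p = 0.122) for HFD + CACF against HFD. med1, a Mediator subunit that PGC-1α binds, had 4.95 and 4.10 TPM in HFD + CACF larvae, 1.03 and 1.12 TPM in HFD larvae, and 1.44, 2.92 and 1.76 TPM in ND larvae (1.41 ± 0.39, limma adjusted p = 0.114). Both HFD + CACF libraries of these genes lay above all 5 others, where 36.2% of all genes lay above HFD and 19.2% above ND. The share of all genes above both groups was not counted. nrip1a, a corepressor of the same receptors, had 10.03 and 9.97 TPM in HFD + CACF larvae and 3.45 and 3.26 TPM in HFD larvae (1.34 ± 0.44, limma adjusted p = 0.171), and esrrb had 2.10 and 2.07 against 0.833 and 0.293 TPM (1.0 ± 0.39, limma adjusted p = 0.252). tfam, the mitochondrial DNA packaging factor, had a log2 fold change of -0.11 ± 0.47 in that comparison.

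Pathways downstream of the switch were described in the same way. Fatty acid oxidation genes (23 tested, 0 called) had medians of 0.26, 0.34 and 0.29 in the same 3 comparisons, citric acid cycle genes (17 tested, 0 called) 0.02, 0.03 and -0.11, and nuclear genes of the respiratory chain (27 tested, 0 called) 0.31, 0.31 and 0.04. Lactate and early glycolysis genes (15 tested, 0 called) had 0.26, 0.20 and -0.22. Without HFD + CACF fish 2 the first median of the respiratory chain became 0.07 and that of lactate and early glycolysis 0.09, where all genes had 0.18. Fatty acid oxidation had 0.23 and the citric acid cycle 0.02 in that fit. Without ND fish 1 the respiratory chain had 0.13 and -0.14 for HFD + CACF against ND and HFD against ND, and fatty acid oxidation 0.37 and 0.11. Lactate and early glycolysis had 0.33 and -0.01 there, and the citric acid cycle -0.09 and -0.22. All genes had 0.02 and -0.18 in these 2 comparisons without ND fish 1. At an unadjusted p under 0.05 limma had 1, 5 and 2 fatty acid oxidation genes, 3, 2 and 0 lactate and glycolysis genes, and 0 of the other 2 lists. edgeR called 0 of all 4 lists, with 1, 8 and 7 fatty acid oxidation, 2, 0 and 0 citric acid cycle, 1, 2 and 0 respiratory chain and 2, 1 and 0 lactate and glycolysis genes at an unadjusted p under 0.05. DESeq2 called eci1, hadhaa and hadhab higher and ucp3 lower in HFD + CACF against ND, pklr lower against HFD and against ND, and 0 others of the 4 lists. For the 23 fatty acid oxidation genes the shares of all genes called against ND were 0.697% higher and 2.95% lower. hadhaa, the trifunctional protein of β-oxidation, had 10.6 and 11.5 TPM in HFD + CACF larvae, 6.79 and 8.26 TPM in HFD larvae, and 3.20, 4.32 and 4.95 TPM in ND larvae. Its HFD libraries lay above all 3 ND libraries, unlike those of ppargc1a. Of the 23 fatty acid oxidation genes 7 had this order and 4 the reverse. Among all genes 12.1% had the reverse, and the share with HFD above ND was not counted. ucp1, an uncoupling protein gene, had 4.94 and 46.2 TPM in HFD + CACF larvae, 55.3 and 68.0 TPM in HFD larvae, and 258.1, 68.4 and 122.5 TPM in ND larvae (log2 fold change -2.96 ± 0.73, limma adjusted p = 0.184, for HFD + CACF against ND). pklr, the liver pyruvate kinase gene, had 9.57 and 14.7 TPM in HFD + CACF larvae, 47.8 and 28.1 TPM in HFD larvae, and 51.9, 35.5 and 59.12 TPM in ND larvae. The log2 fold change of pklr for HFD + CACF against ND was -1.92 ± 0.42 (limma adjusted p = 0.131), and slc16a1b, a lactate and pyruvate carrier gene, had 1.07 ± 0.36 (limma adjusted p = 0.186) for HFD + CACF against HFD.

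**Figure D4:**
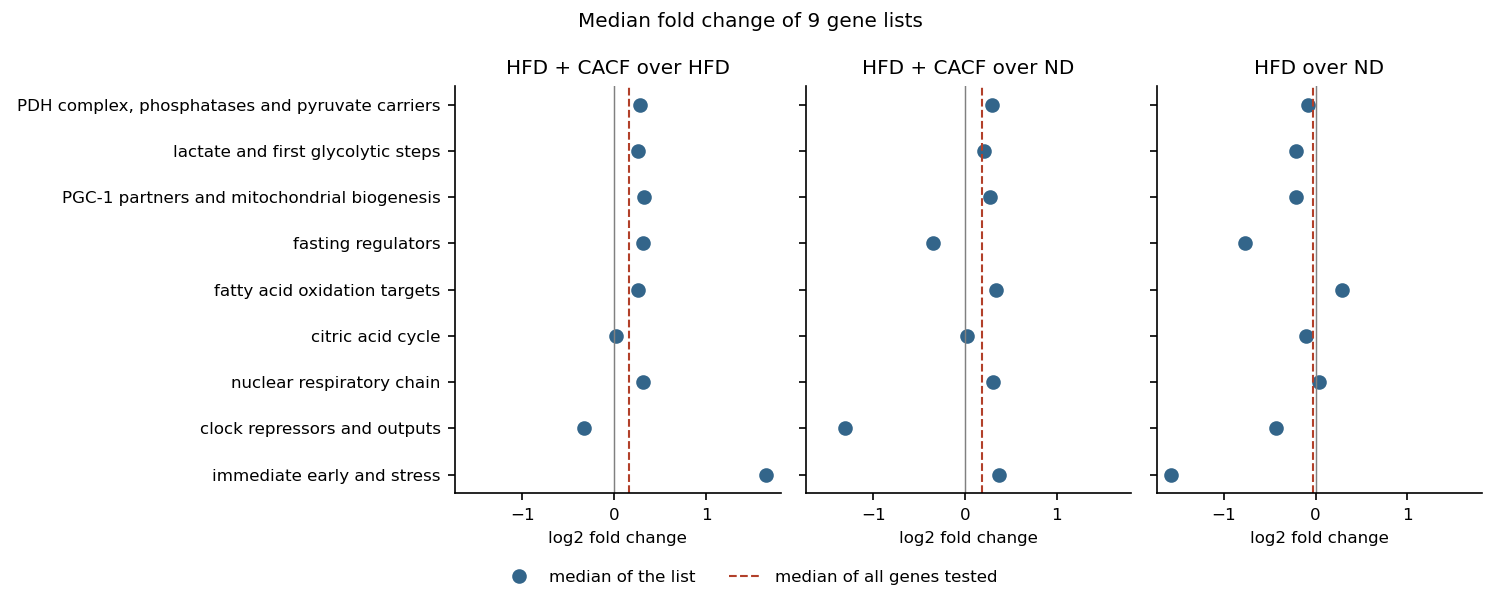
Median log2 fold change, on log2(TPM + 1), of 9 lists of genes around the switch in the 3 comparisons, with the median of all 18169 tested genes as a dashed line. The citric acid cycle list lies within 0.2 of that line throughout, the fasting list lies at -0.77 in HFD over ND, and the immediate early list swings most.

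Fasting regulators (26 tested) had 1 gene called by limma, per1a, lower in HFD + CACF against ND, where 0.0771% of all genes were called. per1a is also in the list of clock repressors and outputs below, so its calls count in both lists. per1a, a period gene of the circadian clock that also answers to glucocorticoids in mammals, had 0.168 and 0.642 TPM in HFD + CACF larvae, 5.04 and 3.35 TPM in HFD larvae, and 5.59, 7.94 and 6.33 TPM in ND larvae (log2 fold change -2.45 ± 0.37, limma adjusted p = 0.033). The call was lost without HFD + CACF fish 2 (limma adjusted p = 0.959), ND fish 1 (0.0726) or ND fish 2 (0.107), with a pseudocount of 5 (0.0883), with a filter of 5 TPM (0.0525), with no filter (0.188), and in edgeR (adjusted p = 0.0823). The other limma alternatives gave an adjusted p of 0.0111 to 0.0402 and DESeq2 one of 6.32e-16. edgeR called 0 of the list, with 3, 9 and 9 at an unadjusted p under 0.05 for HFD + CACF against HFD, HFD + CACF against ND and HFD against ND, where limma had 4, 9 and 8. DESeq2 gave an adjusted p to only 21 of the 26 in each comparison. It called foxo6b higher and per1a lower in the first comparison, fbxo32, foxo1a, foxo4, per1a and trim63a lower in the second, and 0 in the third, with 10 there at an unadjusted p under 0.05, where 5.9% of all genes were. The second comparison had 2.95% of all genes called lower by DESeq2. In HFD against ND 23 of 26 were negative with a median of -0.77, where 52.8% of all genes were negative. Without ND fish 1 it was 21 with a median of -0.43, where 71.0% of all genes were negative. cebpd, a stress and fasting transcription factor gene, had 102.8 and 57.2 TPM in HFD + CACF larvae, 23.2 and 34.3 TPM in HFD larvae, and 231.0, 74.6 and 51.4 TPM in ND larvae. foxo3b, a forkhead factor gene of the fasting response, had 15.7 and 14.7 TPM in HFD + CACF larvae, 5.67 and 5.67 TPM in HFD larvae, and 15.7, 16.0 and 7.85 TPM in ND larvae. For foxo3b both HFD libraries lay below the other 5, as for ppargc1a. Of all genes 36.2% had HFD below HFD + CACF and 12.1% had HFD below ND, and the share with both was not counted. Its log2 fold change was 1.28 ± 0.44 (limma adjusted p = 0.195) for HFD + CACF against HFD and -1.03 ± 0.40 (limma adjusted p = 0.9996) for HFD against ND.

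fbxo32 and trim63a, ubiquitin ligase genes of muscle atrophy, were in the fasting list but not in that pattern. fbxo32 had 1.09 and 12.4 TPM in HFD + CACF larvae, 5.33 and 11.0 TPM in HFD larvae, and 35.4, 29.2 and 20.5 TPM in ND larvae. angptl4, a fasting-induced lipase inhibitor gene and PPAR target in mammals, had 34.4 and 24.2 TPM in HFD + CACF larvae, 14.2 and 18.1 TPM in HFD larvae, and 17.3, 10.6 and 9.19 TPM in ND larvae, with both HFD + CACF libraries above all 5 others. Of all genes 36.2% had HFD + CACF above HFD and 19.2% had it above ND, and the share with both was not counted.

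Other groups of genes moved with the libraries or groups. Clock repressors and outputs (25 tested) had 6 genes called lower by limma in HFD + CACF against ND, where 0.0771% of all genes were called, and of these nr1d1 was also called lower in HFD + CACF against HFD. Without HFD + CACF fish 2, ND fish 1 or ND fish 2 the 6 became 1, 2 and 1, and 0 with no filter on low values, and nr1d1 against HFD was lost with no filter, in a fit of only the compared groups and without HFD + CACF fish 2, while without ND fish 4 that comparison had 1 higher and 5 lower. edgeR called 2 lower against ND and 0 against HFD, and DESeq2 3 higher and 14 lower against ND and 4 higher and 10 lower against HFD. Of all genes DESeq2 called 0.697% higher and 2.95% lower against ND, and 3.6% higher and 1.2% lower against HFD. The part of the sampling hour in any value here was not tested. Immediate early and stress genes (15 tested by limma) had 0 called by limma, edgeR or DESeq2, but DESeq2 gave an adjusted p to only 7. At an unadjusted p under 0.05 limma had 5 and 0 for HFD + CACF against HFD and ND, and 2 for HFD against ND. edgeR had 0, 0 and 7 in the same order, and DESeq2 2, 0 and 3. For HFD against ND 6.41% of all genes in edgeR and 5.9% in DESeq2 were. The 15 genes summed to 1361 and 291 TPM in HFD + CACF larvae, 139.6 and 151 TPM in HFD larvae, and 2967, 207.5 and 179.5 TPM in ND larvae. They were highest in the 2 libraries that stand apart. Their median was 1.65 for HFD + CACF against HFD and 0.61 without HFD + CACF fish 2 (all genes 0.18), and -1.57 for HFD against ND and -0.28 without ND fish 1 (all genes -0.18). Muscle markers, 17 of 17 tested and none at 0, summed to 31470 and 34530 TPM in HFD + CACF larvae, 26730 and 57650 TPM in HFD larvae, and 31770, 43700 and 57700 TPM in ND larvae. Exocrine pancreas markers, 14 of 14 tested and none at 0, summed to 12.1 and 116.3 TPM in HFD + CACF larvae, 256.6 and 678.9 TPM in HFD larvae, and 1246, 135.9 and 1442 TPM in ND larvae. The part of these groups in the values of the switch genes was not tested.

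The 3 tested genes of the switch with the widest range over the libraries in log2(TPM + 1) were pdk2b, pdk3a and pprc1, and the genes nearest to each were sought among 7863 genes. Nearness was the root mean square difference of log2(TPM + 1) profiles centred on their own mean, over 7 libraries. Shared high and low libraries therefore follow from the choice of these genes. The 5 nearest to pdk2b were socs1a (0.36), mlf1 (0.40), trim63a (0.41), trim55b (0.47) and cish (0.47). trim63a, for example, had 9.64 and 32.4 TPM in HFD + CACF larvae, 13.5 and 29.2 TPM in HFD larvae, and 109.9, 56.7 and 35.05 TPM in ND larvae, with ND fish 1 highest and fish 2 below fish 4 in both high-fat groups. cish and socs1a encode suppressors of cytokine signalling, and trim63a and trim55b encode muscle RING-finger proteins.

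The 5 genes nearest to pdk3a were syngap1a (0.19), caly (0.20), cadm1a (0.20), vat1 (0.21) and dnajc5aa (0.22). syngap1a, which encodes a synaptic Ras GTPase-activating protein, had 11.1 and 9.07 TPM in HFD + CACF larvae, 2.07 and 2.07 TPM in HFD larvae, and 2.92, 5.99 and 1.83 TPM in ND larvae. Neuron markers, 9 of 9 tested and none at 0, summed to 1900 and 1995 TPM in HFD + CACF larvae, 1811 and 1590 TPM in HFD larvae, and 1083, 2656 and 1885 TPM in ND larvae. The median neuron marker had a log2 fold change of 0.35 for HFD + CACF against HFD, where pdk3a had 2.07, and its part in the pdk3a value was not tested.

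The 5 genes nearest to pprc1 were gfap (0.21), ctps1a (0.22), ahsa1b (0.22), tuba8l4 (0.22) and rrs1 (0.26). gfap, an astroglial filament gene, had 67.0 and 12.7 TPM in HFD + CACF larvae, 22.8 and 12.5 TPM in HFD larvae, and 28.5, 18.8 and 14.9 TPM in ND larvae. HFD + CACF fish 2 was the highest library for all 5 of these genes, as for pprc1, which follows from their being chosen for nearness to it.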

How the data were processed

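Stranded mRNA libraries of whole larvae were sequenced, per the labels' protocols, and the submitters' processing notes name the tools HISAT2, DESeq2, Trimmomatic and FastQC. Names of the deposited files give GRCz11 as the build. The sources used here do not give the counting program or whether it used strand, so reads of overlapping antisense genes may not be told apart. Per the file headers, each library has a deposited coverage, FPKM and TPM per gene. The authors' tables for HFD and for HFD + CACF against ND hold a normalized count (a signal) per library, log2 fold changes, a test score, p-values and adjusted p-values. The TPM of assembled loci sums to 1000000 and that of the 32520 reference genes, used here, adds 739551 to 884988. The added sum was 884988 and 843445 in HFD + CACF larvae, 739551 and 785788 in HFD larvae, and 815005, 810780 and 780573 in ND larvae. TPM was not rescaled to a common sum, so these differences enter the TPM comparisons. In every library 100% of the deposited normalized counts came out whole (tolerance 0.001) when divided by the smallest step, and these whole reads were recovered. Because the deposited counts are normalized, tests on reads are alternatives only.

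Genes reaching 1 TPM in 2 or more libraries (18169, among them 9 of the 10 genes described) were tested with limma 3.58.1 (R 4.3.3) on log2(TPM + 1), a pseudocount of 1, in 1 fit of all 7 libraries with a variance trend and 4 residual degrees of freedom. p-values were adjusted by Benjamini-Hochberg over all genes at 0.05. No p was adjusted over the genes described alone. Alternatives were pseudocounts of 0.1 and 5, no filter, a filter of 5 TPM, median-of-ratios and quantile scaling, FPKM, normalized counts (at least 10 in 2 libraries), edgeR 4.0.16 and DESeq2 1.42.0 on recovered reads, a fit of only the groups compared, a block for fish number, and each library left out. Leaving out 1 library of a pair assumes that the other varies like the other groups. List medians without the 2 libraries that stand apart were added after seeing the data. The genes and lists were chosen with earlier results of these data known. Named list genes are those past the threshold and up to 4 per list and comparison with the smallest p, of which some are given. pdha1a, and genes named as called by DESeq2 outside that rule, were named after their values were seen. Likeness was sought among genes with a mean of at least 5 TPM and a symbol that is no clone name. The samples of different groups share only 2 fish numbers.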

Additional observations from a re-analysis of the deposited data

How the results depend on the processing

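The number of genes called by limma for HFD + CACF against ND (14) became 60 with the compared groups only, 39 with a filter of 5 TPM, 2 with no filter, 31 on normalized counts, 8 with quantile normalization, 4 in edgeR and 671 in DESeq2, and ran from 1 to 126 with 1 library left out. For HFD + CACF against HFD the 1 called gene became 0 with the compared groups only, 0 with no filter, 0 in edgeR, 4 with a filter of 5 TPM, 3 on normalized counts, 5 with a pseudocount of 0.1 and 960 in DESeq2, and ran from 0 to 143 with 1 library left out. Of the genes of the switch, 0 were called in limma there, 2 in DESeq2, and from 0 to 1 with 1 library left out, the 1 being pdk3a without ND fish 4. With the fish number as a replicate block, HFD + CACF against ND had 155 genes called and HFD + CACF against HFD 940, among them 3 of the switch (pdk3a, pdk4 and ppargc1a, where 4.24% of all genes were called higher). The groups share only fish 2 and 4, and the labels do not say that a number marks a batch, so the numbers are not known to pair the libraries. The differences between fish 2 and 4 correlated across genes at 0.194 between HFD + CACF and HFD, 0.290 between HFD + CACF and ND, and 0.475 between HFD and ND. HFD against ND had 0 genes called under every alternative run. Of the 9 tested genes of the switch, 4 changed sign under at least 1 alternative for HFD + CACF against HFD (pdk2a, pdk2b, ppargc1b and pprc1), 4 for HFD + CACF against ND (esrra, pdk1, pdk2a and pprc1) and 0 for HFD against ND. Of 501 recomputed values 434 moved by less than 1 SD between libraries. Some of these could not move. Leaving out a library outside the comparison, fitting only the compared groups or dropping the filter keeps a fold change in TPM the same. The count therefore overstates how little the values depend on processing. Across the alternatives other than leaving out a library, HFD + CACF against HFD ranged from 0.90 to 3.25 for pdk3a, 0.59 to 2.81 for ppargc1a and 0.58 to 2.51 for pdk4, lowest with a pseudocount of 5. The cause of these differences was not tested. Groups of 2 libraries and levels near 1 TPM limit what can be told.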
